A study of Mus musculus with 36 samples.

Results

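Glucose production by liver and kidney was followed through 8 genes: Pck1, G6pc1, Fbp1, Pklr, Ppargc1a, Tat, Slc2a2 and Slc37a4. They were picked by symbol for their place in the pathway, with earlier results of these data known. Each was matched to 1 Ensembl identifier, and all 8 were found among the 78239 genes of the count tables. The animals were healthy male wild-type C57BL/6NCrl mice, an inbred strain, killed at an age of 8, 10 or 12 weeks. All groups shared chow and water without restriction, blood sampling under ketamine/xylazine anaesthesia and tissue frozen in liquid nitrogen. Liver, kidney and heart were each sequenced as polyA RNA from whole tissue in 4 biological replicates per age, which gave 36 libraries in 9 groups. The hour of death and any removal of food before it are not given in the sources used here.

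Gluconeogenesis makes glucose from lactate, glycerol and amino acids and runs in hepatocytes and in the proximal tubule of the kidney. Its flux is set at a few steps that glycolysis does not share, and fasting hormones, insulin, glucocorticoids and the circadian clock act on the genes of those steps. Glucose leaves the cell only after the endoplasmic reticulum has taken up glucose 6-phosphate and removed its phosphate.

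Each enzyme has its own place. Pck1 encodes cytosolic phosphoenolpyruvate carboxykinase, which commits oxaloacetate to the pathway. Fbp1 encodes fructose-1,6-bisphosphatase. G6pc1 encodes the catalytic subunit of glucose 6-phosphatase, and Slc37a4 the transporter that carries its substrate into the endoplasmic reticulum. Slc2a2 encodes GLUT2, the glucose carrier of hepatocyte and tubule membranes. Tat encodes tyrosine aminotransferase, an enzyme of amino acid catabolism in hepatocytes. Ppargc1a encodes PGC-1 alpha, a coactivator of mitochondrial and gluconeogenic genes. Pklr encodes liver pyruvate kinase, a glycolytic enzyme that works against the pathway.

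In the mouse genome, build GRCm39, the 8 protein-coding genes lay on 7 chromosomes. Pck1 (ENSMUSG00000027513) spanned chr2:172994744-173001066, G6pc1 (ENSMUSG00000078650) chr11:101258369-101268729, Tat (ENSMUSG00000001670) chr8:110717063-110726435 and Slc37a4 (ENSMUSG00000032114) chr9:44308144-44314265, all on the plus strand. Slc2a2 (ENSMUSG00000027690) spanned chr3:28752051-28785508 and Pklr (ENSMUSG00000041237) chr3:89043449-89054619 on the plus strand. Fbp1 (ENSMUSG00000069805) spanned chr13:63012567-63036263 and Ppargc1a (ENSMUSG00000029167) chr5:51611592-51725068 on the minus strand. Hcn3, on the opposite strand, shared 32.9% of the exonic bases of Pklr, and the libraries carried no strand, with 49.8% to 50.2% of pairs on the first strand. Pairs lying on both genes cannot be assigned to either and were left out of the counts, which took 27.2% of the pairs lying on Pklr in liver and 30.2% in kidney. Slc37a4 shared 89.9% of its exonic bases with Trappc4 in the annotation used here for positions and exon lengths, which is later than the one used for counting, but at most 0.000974% of its pairs were left out in any tissue.

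The 250 bases before a start annotated by RefSeq are shown for 3 genes: Pck1 and G6pc1, the first and last committed steps, and Tat, which was read in liver and almost not at all in kidney. These starts, at 172994866, 101258542 and 110717068, lie downstream of the gene starts given above. A part of each window therefore lies inside the gene span of the other annotation. All 8 genes matched an entry of the RefSeq promoter table (GRCm39). The windows run from 5′ to 3′ on the plus strand at chr2:172994616-172994865, chr11:101258292-101258541 and chr8:110716818-110717067, and capitals mark each match to a searched motif, a match on the minus strand reading as its reverse complement.
Pck1: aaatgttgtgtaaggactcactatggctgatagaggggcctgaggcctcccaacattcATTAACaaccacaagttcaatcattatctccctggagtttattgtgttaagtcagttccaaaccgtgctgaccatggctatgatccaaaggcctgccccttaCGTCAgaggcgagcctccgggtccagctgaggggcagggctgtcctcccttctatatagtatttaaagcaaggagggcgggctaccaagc
G6pc1: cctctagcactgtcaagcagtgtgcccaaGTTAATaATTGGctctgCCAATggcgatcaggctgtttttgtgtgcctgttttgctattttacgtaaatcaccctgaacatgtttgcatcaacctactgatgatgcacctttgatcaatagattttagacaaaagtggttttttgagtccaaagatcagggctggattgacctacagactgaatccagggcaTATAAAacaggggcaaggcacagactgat
Tat: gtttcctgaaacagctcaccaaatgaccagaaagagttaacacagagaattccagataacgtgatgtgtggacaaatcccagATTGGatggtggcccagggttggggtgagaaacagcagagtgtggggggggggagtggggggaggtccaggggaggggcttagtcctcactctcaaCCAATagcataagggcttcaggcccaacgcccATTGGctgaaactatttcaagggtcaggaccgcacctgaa

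The Pck1 window held TGACG, a part of the cyclic AMP response element, on the minus strand 90 to 86 bases before the start, and GTTAAT, a part of the HNF1 site, on the minus strand 192 to 187 bases before it. The G6pc1 window held TATAAA 29 to 24 bases before the start, CCAAT on the plus strand at 204 to 200 and on the minus strand at 214 to 210, and GTTAAT at 221 to 216. The Tat window held CCAAT 3 times, at 72 to 68 on the plus strand and at 168 to 164 and 40 to 36 on the minus strand. No printed match overlapped another. Among the other members, TGACG was found before starts 1 and 2 of Slc37a4 and before the start of Ppargc1a. CCAAT was found before the starts of Fbp1 and Slc2a2 and start 2 of Pklr. TATAAA was found before start 2 of Pklr and start 3 of Slc37a4. Across 32851 promoter windows of the same length, searched on both strands, 33.8% held CCAAT, 17.8% TGACG, 12.4% TATAAA and 6.43% GTTAAT. The 3 printed windows held none of the E-box CACGTG (in 6.02% of windows), the forkhead site TGTTTAC (3.17%) and the glucocorticoid element end TGTTCT (16.1%), which were also searched. A match is a run of letters and no measure of binding.

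The libraries held 21031599 to 33637390 read pairs counted on genes. Between 21.2% and 31.4% of pairs fell on no gene. Marker genes were high in the tissue of their label. The summed level of 8 hepatocyte markers was 86282 to 142630 CPM in liver, where CPM is counts per 1e+06 counts of the scaled library, and 129 to 230.2 CPM in kidney. The 10 proximal tubule markers summed to 12105 to 14555 CPM in kidney, and 7 cardiomyocyte markers to 45285 to 59389 CPM in heart. Replicates 2 and 4 of the 10-week hearts stood apart in 1 respect, with 224 and 368 counts of the hepatocyte gene Alb against 0 to 70 in the other 10 hearts.

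Levels between genes were compared as CPM per kilobase of exon, since a long transcript yields more pairs. The exon lengths come from the later annotation, and the order of the genes rests on them. In liver, Tat (1085 ± 497 CPM per kb, SD, n = 12) and Pck1 (1059 ± 214) led the 8 genes and did not differ beyond their spread. Fbp1 followed at 433 ± 53.7 CPM per kb and G6pc1 at 180.1 ± 115 CPM per kb. Pklr (83.4 ± 51.6), Slc2a2 (74.9 ± 16.3) and Slc37a4 (70.8 ± 19.7) lay within each other's spread. Ppargc1a was last at 2.02 ± 0.77 CPM per kb, and its highest library (3.94) was below the lowest of Slc37a4 (35.2).

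Kidney kept much of this order without Tat. Pck1 led at 718 ± 168 CPM per kb (SD, n = 12), followed by Fbp1 at 453 ± 29.9 and G6pc1 at 340.1 ± 77.4 CPM per kb. The 12 libraries of Pck1 and Fbp1 touched at their edges (lowest Pck1 508, highest Fbp1 509 CPM per kb), and those of Fbp1 and G6pc1 overlapped. Slc37a4 (79.7 ± 11.6), Slc2a2 (37.5 ± 4.25), Ppargc1a (16.1 ± 0.39) and Pklr (6.72 ± 0.72) came next in that order, with no overlap between neighbours. Tat was read 3 times in all 12 kidneys.

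**Figure D1:**
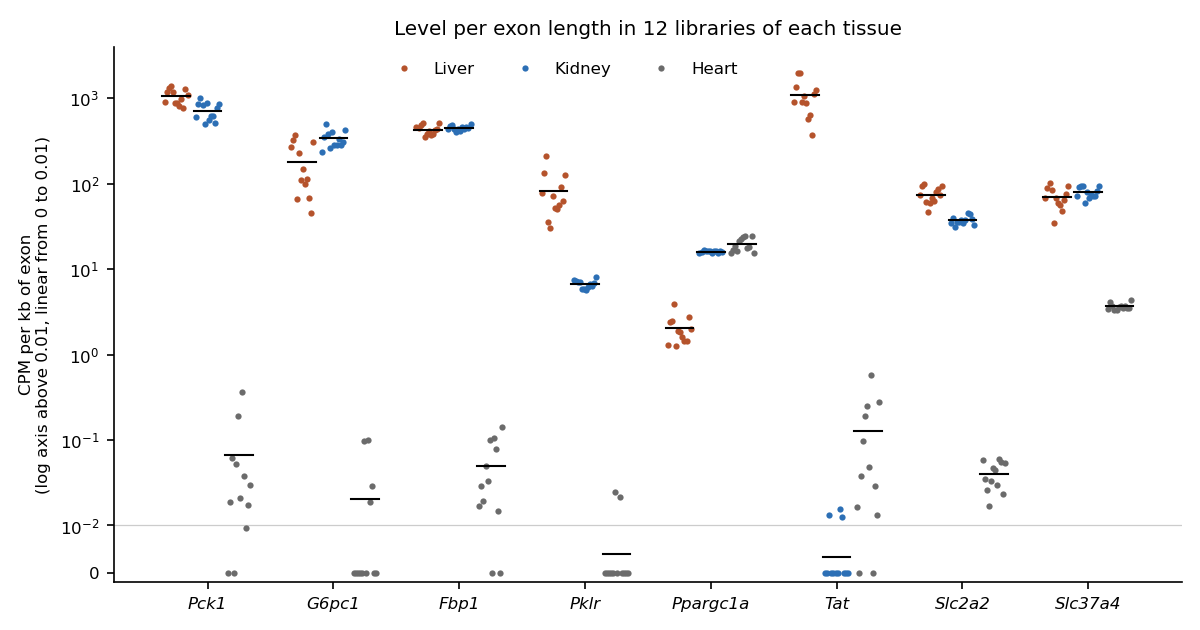
Level of each gene in CPM per kilobase of exon (log axis) in 12 libraries each of liver, kidney and heart, each point 1 library. Pck1, Fbp1 and G6pc1 stand high in liver and kidney, Tat in liver only, and Ppargc1a is the 1 gene whose hearts (mean 19.7) lie above its livers (mean 2.02).

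Which organ held more of each transcript was tested in 1 fit of all 36 libraries (edgeR quasi-likelihood test, Benjamini-Hochberg adjusted over 19716 genes, scaled across tissues). Tested this way, 6 of the 8 genes were higher in liver, where 37% of all genes were, and 1 was lower, where 46% were (83.1% called in all). Tat, kept by the count filter through its livers alone, is among the 6. Pklr, the glycolytic enzyme, had the largest fitted difference of the genes read in both organs, at 401 ± 247 CPM in liver against 18.6 ± 2.10 CPM in kidney (SD, n = 12 each), a log2 difference of 4.35 ± 0.21 (SE) with an adjusted p of 1.86e-17. Among the genes higher in liver Slc2a2 followed, at 660.2 ± 144 CPM against 191 ± 21.8 CPM, a log2 difference of 1.78 ± 0.08 (adjusted p = 1.43e-20, edgeR). Pck1 was at 5007 ± 1016 CPM against 1958 ± 466 CPM, a log2 difference of 1.36 ± 0.14 (adjusted p = 1.84e-10, edgeR). In bulk tissue, more producing cells and more RNA per cell cannot be told apart.

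Tat differed by so much that the ratio rests on counting. The 12 livers held 808625 counts of Tat and the 12 kidneys 3, with 9 kidneys at 0, where a count of 0 allows up to 0.0671 to 0.101 CPM per library. The ratio of totals, scaled across tissues, was 482370 with an exact 95% interval of 165060 to 2339100, which covers counting error only. No fitted fold change is given for this gene.

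The phosphatase steps were the most alike. Fbp1 was at 1299 ± 160.3 CPM in liver and 785 ± 56.1 CPM in kidney (log2 difference 0.72 ± 0.09, adjusted p = 2.4e-09, edgeR). Slc37a4 was at 414 ± 115 CPM and 269 ± 40.6 CPM (0.60 ± 0.09, adjusted p = 3.93e-07). For G6pc1 the levels were 558 ± 356 CPM in liver and 609.6 ± 142 CPM in kidney, a log2 difference of -0.19 ± 0.24 that did not pass the test (adjusted p = 0.478, edgeR).

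These 3 genes depended on how the organs were put on a common scale. The median log2 difference of all genes was -0.16 with the scaling factors, whose medians were 0.779 in liver and 1.36 in kidney, and -0.93 with library totals alone, a scale chosen after seeing the data. On library totals Fbp1 stood at -0.073 (adjusted p = 0.406), Slc37a4 at -0.19 (adjusted p = 0.0449) and G6pc1 at -0.97 (adjusted p = 5.32e-04, edgeR), so the direction turned for Fbp1 and Slc37a4. The directions of Pck1, Pklr, Slc2a2 and Ppargc1a were the same on both scales.

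Ppargc1a was the 1 member that was lower in liver, at 18.3 ± 7.02 CPM against 83.8 ± 2.11 CPM in kidney (log2 difference -2.22 ± 0.11, adjusted p = 7.13e-19, edgeR). On the same scale, heart held 148 ± 26.0 CPM. The 12 hearts (117 to 185 CPM), 12 kidneys (81.1 to 88.3 CPM) and 12 livers (11.3 to 35.6 CPM) did not overlap, and liver and kidney were apart in 49.5% of all genes.

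Whether glucose production genes move during late adolescence was asked in each organ on its own, with levels as CPM scaled within the organ. In liver, all 8 genes had a lower mean at 10 than at 8 weeks, with a median log2 change of -0.64 against -0.000583 over all genes. No gene passed the adjusted test at 10 against 8 weeks (0 of 8, where 0.0204% of all 14672 genes did; edgeR), and neither DESeq2 nor limma-voom called one. At an unadjusted p under 0.05 there were 5 of 8, beside 14.3% of all genes. The 8 genes come from the same libraries, are not independent and were chosen with earlier results of these data known. No log2 change of the 8 turned positive under any of 21 other settings.

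Pck1, the entry step, was read in 8-week-old livers at 3353, 4408, 4946 and 5124 CPM. The 10-week-old livers held 4401, 3267, 3295 and 2993 CPM, and the 12-week-old livers 3597, 2848, 4730.3 and 4087 CPM. All 3 ages overlapped, and 3 of the 4 livers aged 10 weeks lay below every 8-week liver. The log2 change from 8 to 10 weeks was -0.35 ± 0.18 (adjusted p = 0.392, edgeR).

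Fbp1 had the tightest levels in liver, 1075, 1051, 1150.2 and 1198 CPM at 8 weeks. At 10 weeks it stood at 838, 894, 983 and 871 CPM, and at 12 weeks at 900.2, 1008, 1029 and 1209 CPM. Every 10-week liver lay below every 8-week liver, a separation downwards that 5.01% of all genes had. The log2 change was -0.32 ± 0.10 with an unadjusted p of 0.0073 and an adjusted p of 0.193 (edgeR), so it did not pass. From 10 to 12 weeks the log2 change was 0.21 ± 0.10 (adjusted p = 0.372).

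The last step was the most scattered. G6pc1 was at 653, 786, 916 and 162 CPM in 8-week-old livers. It was at 565, 269, 363 and 245 CPM at 10 weeks and at 277, 164, 109.7 and 747 CPM at 12 weeks. At both outer ages 1 liver departed from the other 3, downwards at 8 weeks and upwards at 12 weeks. With a coefficient of variation within ages of 61.0%, log2 changes of -0.80 ± 0.58 at 10 and -0.96 ± 0.58 at 12 weeks against 8 weeks did not pass (adjusted p = 0.561 and 0.464, edgeR).

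Slc37a4, the partner transporter of glucose 6-phosphatase, was at 315, 414, 463 and 389 CPM at 8 weeks. The 10-week livers held 161, 315, 274 and 255 CPM and the 12-week livers 222, 298, 350.2 and 432 CPM. The ages of 8 and 10 weeks met at 315 CPM. The log2 change to 10 weeks was -0.65 ± 0.22 (unadjusted p = 0.0103, adjusted p = 0.21, edgeR), and from 10 to 12 weeks it was 0.37 ± 0.22 (adjusted p = 0.467).

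Slc2a2, the glucose carrier, had means of 564, 408 and 579 CPM at the 3 ages in order. It was read at 511, 643, 684 and 419 CPM at 8 weeks, 324, 409, 467 and 432 CPM at 10 weeks and 551, 603, 507 and 655 CPM at 12 weeks. All 12-week livers lay above all 10-week livers, a separation upwards that 3.51% of all genes had, while the 8- and 10-week livers overlapped. The log2 change was -0.47 ± 0.16 from 8 to 10 weeks (unadjusted p = 0.0106, adjusted p = 0.211) and 0.51 ± 0.16 from 10 to 12 weeks (unadjusted p = 0.0067, adjusted p = 0.174, edgeR). At 12 against 8 weeks it was 0.04 ± 0.16 (adjusted p = 0.935), and it was -0.0066, -0.080 and -0.028 without replicate 1 or 4 at 8 weeks or replicate 4 at 12 weeks.

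Tat was at 2195, 3245, 4752 and 4722 CPM in 8-week-old livers. It was at 2169, 2601, 2119 and 1372 CPM at 10 weeks and at 1546, 910.4, 2726 and 3037 CPM at 12 weeks. Both later ages reached lower than any 8-week liver, and both overlapped the 8-week group through its replicate 1. The log2 changes against 8 weeks were -0.85 ± 0.35 at 10 weeks (unadjusted p = 0.0292, adjusted p = 0.289) and -0.86 ± 0.35 at 12 weeks (unadjusted p = 0.0281, adjusted p = 0.275, edgeR).

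Ppargc1a, the coactivator, was read in liver at 9.27, 16.9, 17.3 and 27.8 CPM at 8 weeks. Values were 8.81, 13.2, 13.01 and 11.2 CPM at 10 weeks and 10.1, 10.2, 19.6 and 14.2 CPM at 12 weeks. The 3 ages overlapped, and the 8-week group spanned the widest range. The log2 change to 10 weeks was -0.62 ± 0.29 (unadjusted p = 0.052, adjusted p = 0.354, edgeR).

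The glycolytic Pklr had the largest change in the liver at 10 weeks. Its 8-week livers held 297, 506, 797 and 134 CPM, its 10-week livers 113.3, 269, 194 and 193 CPM and its 12-week livers 213, 342, 238 and 472 CPM. Replicate 4 of the 8-week livers, which was the lowest of its age in G6pc1 too, lay within the range of the 10-week group, and the other 3 lay above it. The log2 change from 8 to 10 weeks was -1.17 ± 0.44 (unadjusted p = 0.0198, adjusted p = 0.256, edgeR), and from 10 to 12 weeks it was 0.72 ± 0.44 (adjusted p = 0.488). Counting the pairs shared with Hcn3 too, which may belong to either gene, left the direction from 8 to 10 weeks as it was.

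**Figure D2:**
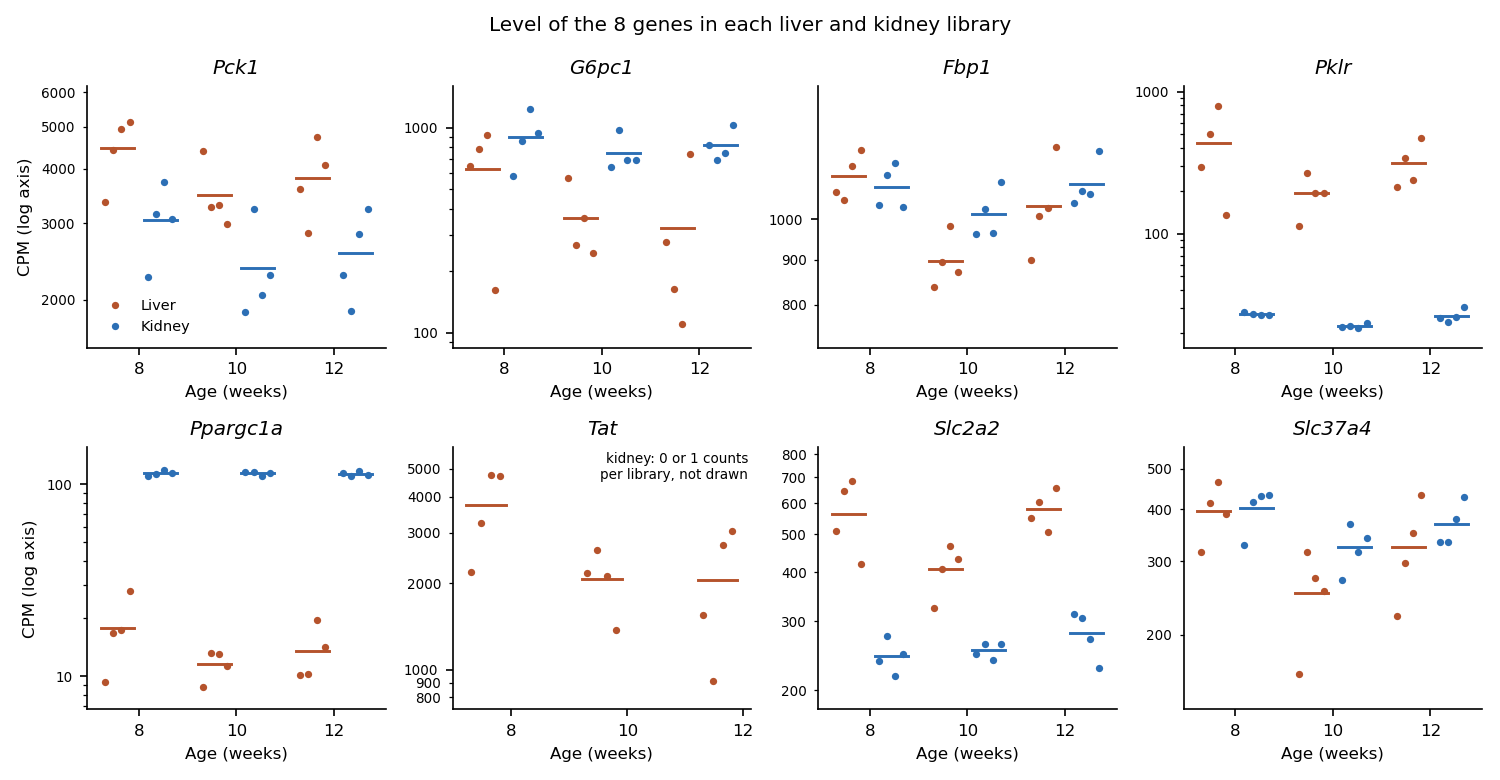
CPM (log axis) of each gene in every liver and kidney library at 8, 10 and 12 weeks, each point 1 library and each line the mean of 4. Liver means are lowest at 10 weeks for Pck1, Fbp1, Pklr, Ppargc1a, Slc2a2 and Slc37a4, and the kidney values of Ppargc1a (110.4 to 119 CPM) barely spread.

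At 12 against 10 weeks 6 of 8 liver genes had a higher mean and none passed the test (0 of 8, beside 0.0545% of all genes; 1 at an unadjusted p under 0.05, beside 14.1%). Over 21 other settings 10 of 168 values at this pair of ages, in 3 genes, had the other sign. At 12 against 8 weeks 7 of 8 had a lower mean, and again none passed (0 of 8, beside 0.239% of all genes; 1 at an unadjusted p under 0.05, beside 15.1%), with 4 of 168 values in 2 genes of the other sign. Asking for any difference among the 3 ages called 0 of 8 in edgeR, beside 0.123% of all genes, with 4 at an unadjusted p under 0.05, beside 17.9%. DESeq2 and limma-voom called 0 of 8 in each of these comparisons.

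In the kidney, 7 genes could be tested, since Tat fell under the count filter. At 10 against 8 weeks 6 of the 7 had a lower mean, with a median log2 change of -0.27 against 0.00226 over all genes. Ppargc1a, at -0.000419, is 1 of the 6. Over 21 other settings 8 of 147 values, in 2 genes, had the other sign. None passed at an adjusted p under 0.05 (0 of 7, beside 0.929% of 17649 genes; edgeR), and 2 had an unadjusted p under 0.05, beside 16.5% of all genes. DESeq2 called 1 of the 7, Pklr, and limma-voom 0, with no share of all genes computed for either.

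Renal Pklr was low and steady. It was read at 27.9, 27.3, 26.6 and 26.9 CPM at 8 weeks, 22.1, 22.3, 21.7 and 23.6 CPM at 10 weeks and 25.3, 23.7, 25.7 and 30.6 CPM at 12 weeks. All 10-week kidneys lay below all 8-week and all 12-week kidneys. Of all genes, 4.07% were separated downwards at 10 against 8 weeks and 4.54% upwards at 12 against 10 weeks. The log2 change was -0.28 ± 0.07 from 8 to 10 weeks (unadjusted p = 0.00146, adjusted p = 0.0731, edgeR), and it was called by DESeq2 (adjusted p = 0.0207) and in an edgeR fit of those 2 ages only (adjusted p = 0.0452). Without replicate 4 of the 12-week kidneys the adjusted p was 0.0275. From 10 to 12 weeks the log2 change was 0.23 ± 0.07 (adjusted p = 0.12).

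Slc37a4 in kidney was at 328, 416, 429 and 433 CPM at 8 weeks. It was at 271, 368, 315 and 341 CPM at 10 weeks and at 333, 333, 378 and 427 CPM at 12 weeks. Replicate 1 of the 8-week kidneys lay within the 10-week range, and the other 3 above it. The log2 change to 10 weeks was -0.31 ± 0.11 (unadjusted p = 0.0136, adjusted p = 0.173, edgeR).

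Renal Pck1 was at 2253, 3148, 3726 and 3072 CPM at 8 weeks, 1879, 3235, 2052 and 2284 CPM at 10 weeks and 2284, 1888, 2828 and 3226 CPM at 12 weeks. The ages overlapped throughout, and the log2 change to 10 weeks was -0.37 ± 0.19 (adjusted p = 0.369, edgeR). Its companion G6pc1 was at 580.0, 864, 1229.9 and 943 CPM at 8 weeks, 645, 972, 696 and 695 CPM at 10 weeks and 821, 696, 755 and 1028 CPM at 12 weeks. The lowest and the highest kidney were both 8 weeks old, and the log2 change to 10 weeks was -0.27 ± 0.19 (adjusted p = 0.536, edgeR).

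The other 3 renal genes had narrow ranges. Fbp1 lay between 963 and 1196 CPM over the 12 kidneys, with means of 1087, 1014 and 1097 CPM at the 3 ages in order. Slc2a2 lay between 218 and 314 CPM, and its log2 change from 8 to 12 weeks was 0.19 ± 0.09 (unadjusted p = 0.0606, adjusted p = 0.457, edgeR). Ppargc1a lay between 110.4 and 119 CPM, with means of 114.1, 114.1 and 113.4 CPM and a coefficient of variation within ages of 2.65%, against 36.6% in liver.

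None of the 7 renal genes passed at 12 against 10 weeks (beside 0.482% of all genes; 1 at an unadjusted p under 0.05, beside 16.4%) or at 12 against 8 weeks (beside 0.0567%; 0 at an unadjusted p under 0.05, beside 11.7%). Over the 3 ages together edgeR called 0 of 7, beside 0.816% of all genes, with 2 at an unadjusted p under 0.05, beside 19.1%. Over the 3 ages DESeq2 called 1 of the 7 and limma-voom 0, again without a share of all genes. For the 2 pairwise comparisons both called 0.

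**Figure D3:**
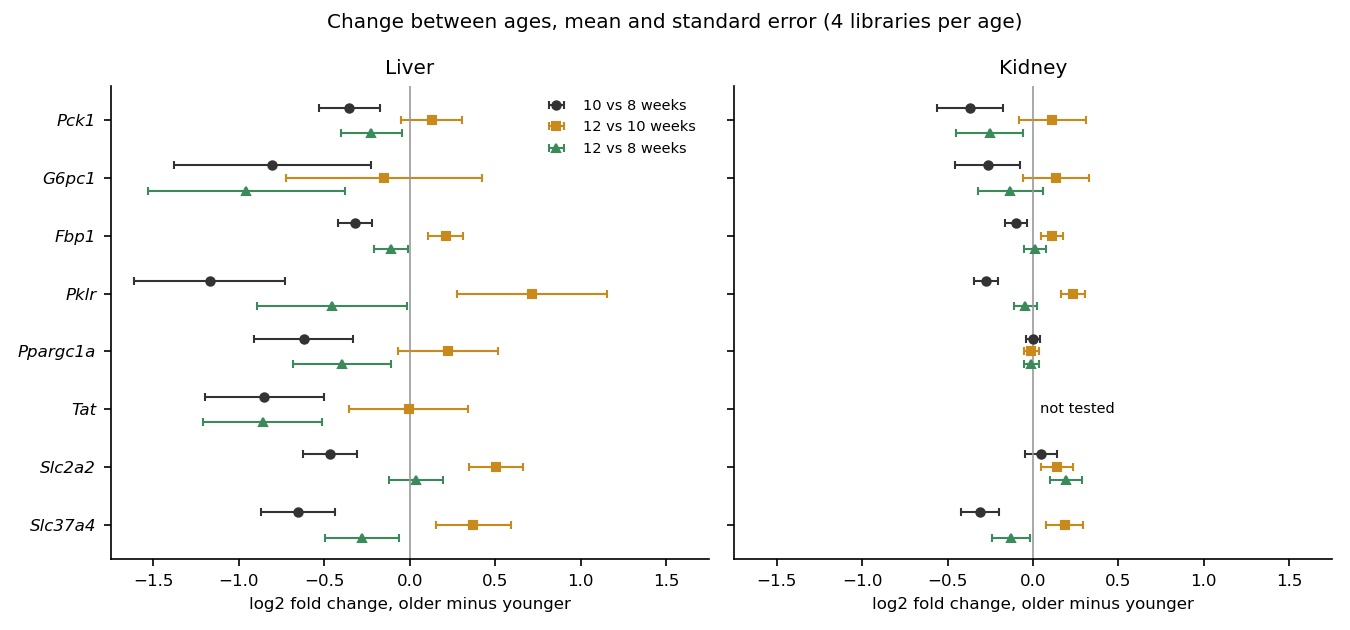
Log2 change of each gene between ages in liver and kidney, as points with the standard error of the fit (4 libraries per age). All 8 liver points and 6 of 7 kidney points lie below 0 at 10 against 8 weeks, renal Ppargc1a at -0.000419 being the nearest to it and Pklr in liver, at -1.17, the lowest; none passed the adjusted test.

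Liver and kidney were compared for their change between ages by an interaction term in the fit of 36 libraries, which made no use of the library numbers. Tat, with 3 counts in kidney, could not be tested. None of the other 7 passed at 10 against 8 weeks (0 of 7, beside 0.0558% of 19716 genes; edgeR) or at 12 against 8 weeks (0 of 7, beside 0.304%), and DESeq2 and limma-voom called 0 in both. At an unadjusted p under 0.05 there were 2 at 10 against 8 weeks, beside 9.44% of all genes, and 0 at 12 against 8 weeks, beside 11.2%. For Slc2a2 the change in liver minus that in kidney was -0.49 ± 0.19 on the log2 scale (unadjusted p = 0.0143, adjusted p = 0.392, edgeR). For Ppargc1a it was -0.59 ± 0.27 (unadjusted p = 0.0355, adjusted p = 0.487, edgeR). For Pklr, with the largest gap of -0.87 ± 0.45, the unadjusted p was 0.0651 and the adjusted p 0.576. A p above the threshold does not show that the organs changed alike.

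Heart, which releases no glucose, served as a tissue beside them. Ppargc1a and Slc37a4 were expressed there, and the other 6 were found as traces of 4 to 92 counts summed over 12 hearts. The count filter left 4 genes, of which Pck1 and Tat passed it through the 10-week hearts alone. Neither Ppargc1a nor Slc37a4 was called at any pair of ages (0 of 2 at 10 against 8 weeks, beside 1.06% of 15137 genes; at 12 against 10 weeks, beside 0.0396%; at 12 against 8 weeks, beside 4.56%; edgeR). At an unadjusted p under 0.05 there were 1, 1 and 0 of the 2 in these comparisons, beside 15.8%, 11.7% and 23.4% of all genes. Of the 4 genes kept, DESeq2 called 1, Ppargc1a, at 10 against 8 weeks and 0 at the other pairs, and limma-voom called 0 throughout. Over the 3 ages edgeR called 0 of the 2, beside 2.6% of all genes, with 1 at an unadjusted p under 0.05, beside 22.3%. DESeq2 called 1 of the 4. No share of all genes was computed for DESeq2 or limma-voom.

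Cardiac Ppargc1a was at 111, 119.7, 134 and 115 CPM at 8 weeks. It was at 151, 159, 168 and 174 CPM at 10 weeks and at 124, 129, 172 and 111 CPM at 12 weeks. All 10-week hearts lay above all 8-week hearts, as for 5.05% of genes, with a log2 change of 0.45 ± 0.11 (unadjusted p = 7.72e-04, adjusted p = 0.0625, edgeR). DESeq2 (adjusted p = 0.00987) and an edgeR fit of the 2 ages only (adjusted p = 0.0198) called it. So did fits without replicate 3 (adjusted p = 0.0196) or replicate 4 (adjusted p = 0.0334) of the 12-week hearts. Slc37a4 lay between 15.2 and 19.9 CPM in the 12 hearts.

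The trace genes of the heart were not spread alike. Of 71 counts of Pck1, 48 came from replicates 2 and 4 at 10 weeks, as did 47 of 92 counts of Tat, 11 of 14 of G6pc1 and all 4 of Pklr. The same hearts gave 11 of 34 counts of Fbp1 and 12 of 85 of Slc2a2, which was read in all 12 hearts. These were the 2 hearts with the high counts of Alb, and their hepatocyte markers summed to 45.6 and 54.2 CPM against 20.96 to 33.9 CPM in the others. Fitted log2 changes from 8 to 10 weeks of 2.96 ± 0.88 for Pck1 (adjusted p = 0.118) and 2.78 ± 0.96 for Tat (adjusted p = 0.169) did not pass in the main edgeR fit. Without replicate 2 at 10 weeks they were 2.86 and 2.80, and without replicate 4 both genes fell under the count filter. The part of liver RNA in these values was not tested.

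Livers and kidneys of 1 age still differed from each other, and the genes were therefore compared library by library after the mean of each age was subtracted. Of 21 pairs of genes in kidney 3 were related at an adjusted p under 0.05 (permutation test of Pearson's r, 100000 resamples, two-sided, adjusted over 21 pairs), and they joined Pck1, G6pc1 and Slc37a4 to each other. Resamples over all 12 libraries do not account for the age means subtracted, which makes these p too small. All 3 kept an adjusted p under 0.05 when resamples were drawn within ages, a choice made after seeing the data.

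Pck1 and Slc37a4 had an r of 0.904 and a rho of 0.895 over 12 kidneys (permutation p = 1.1e-04 and 2e-04, adjusted p = 0.00147 and 0.0042). Within ages the adjusted permutation p of r was 0.0103, and r was 0.867 without the 2 kidneys farthest from the median of Pck1. Pck1 and G6pc1 had an r of 0.876 and a rho of 0.825 (permutation p = 1.4e-04 and 0.00133, adjusted p = 0.00147 and 0.00931), with an adjusted p of 0.0139 within ages and an r of 0.817 without the 2 farthest. Kidneys rich in the entry enzyme were rich in both parts of the glucose 6-phosphatase system. G6pc1 and Slc37a4 had an r of 0.820 and a rho of 0.839 (permutation p = 9.3e-04 and 0.00104, adjusted p = 0.00651 and 0.00931), with 0.0139 within ages and an r of 0.797 without the 2 farthest. Leaving out any 1 kidney kept the 3 values of r between 0.707 and 0.930, and the number of related pairs was 2 to 5, with 5 without replicate 4 at 10 weeks.

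The liver paired other genes. Of 28 pairs, 2 had an adjusted p under 0.05 by r and 5 by rho, where kidney had 3 by either. The 3 further pairs by rho were Fbp1 with Slc37a4 (rho = 0.776, adjusted permutation p = 0.0396), Pklr with Slc37a4 (rho = 0.762, 0.0396) and Fbp1 with Ppargc1a (rho = 0.741, 0.0452), whose adjusted permutation p by r were 0.0661, 0.156 and 0.168. Pklr and Slc2a2 had an r of 0.908 and a rho of 0.846 (permutation p = 3e-05 and 8.9e-04, adjusted p = 8.4e-04 and 0.0249), and an r of 0.825 without the 2 livers farthest from the median of Pklr. Pck1 and Tat had an r of 0.831 and a rho of 0.762 (permutation p = 0.00102 and 0.00554, adjusted p = 0.0143 and 0.0396), and an r of 0.857 without the 2 farthest. With resamples drawn within ages neither pair stayed under 0.05 (adjusted permutation p = 0.054 and 0.0718). The number of related liver pairs was 8 without replicate 1 at 10 weeks, 5 without replicate 4 at 8 weeks, and 1 without replicate 1 at 8 weeks or replicate 2 at 12 weeks. In liver the 3 pairs of the kidney trio had smaller values, an r of 0.02 for Pck1 with G6pc1, 0.08 for Pck1 with Slc37a4 and 0.03 for G6pc1 with Slc37a4. The difference between the organs in r was not tested.

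Liver and kidney libraries carry the same library numbers, and the labels do not say that a number marks 1 mouse. By number, Slc37a4 in liver was related to Slc37a4 in kidney over 12 numbers (r = 0.877, rho = 0.790, permutation p = 2.7e-04 and 0.0032, adjusted over 7 genes p = 0.00189 and 0.0224). The adjusted permutation p of r was 0.00973 within ages, and r was 0.876 without the 2 livers farthest from the median. The other 6 genes had an r between -0.18 and 0.45 and adjusted permutation p of 0.493 to 0.569.

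**Figure D4:**
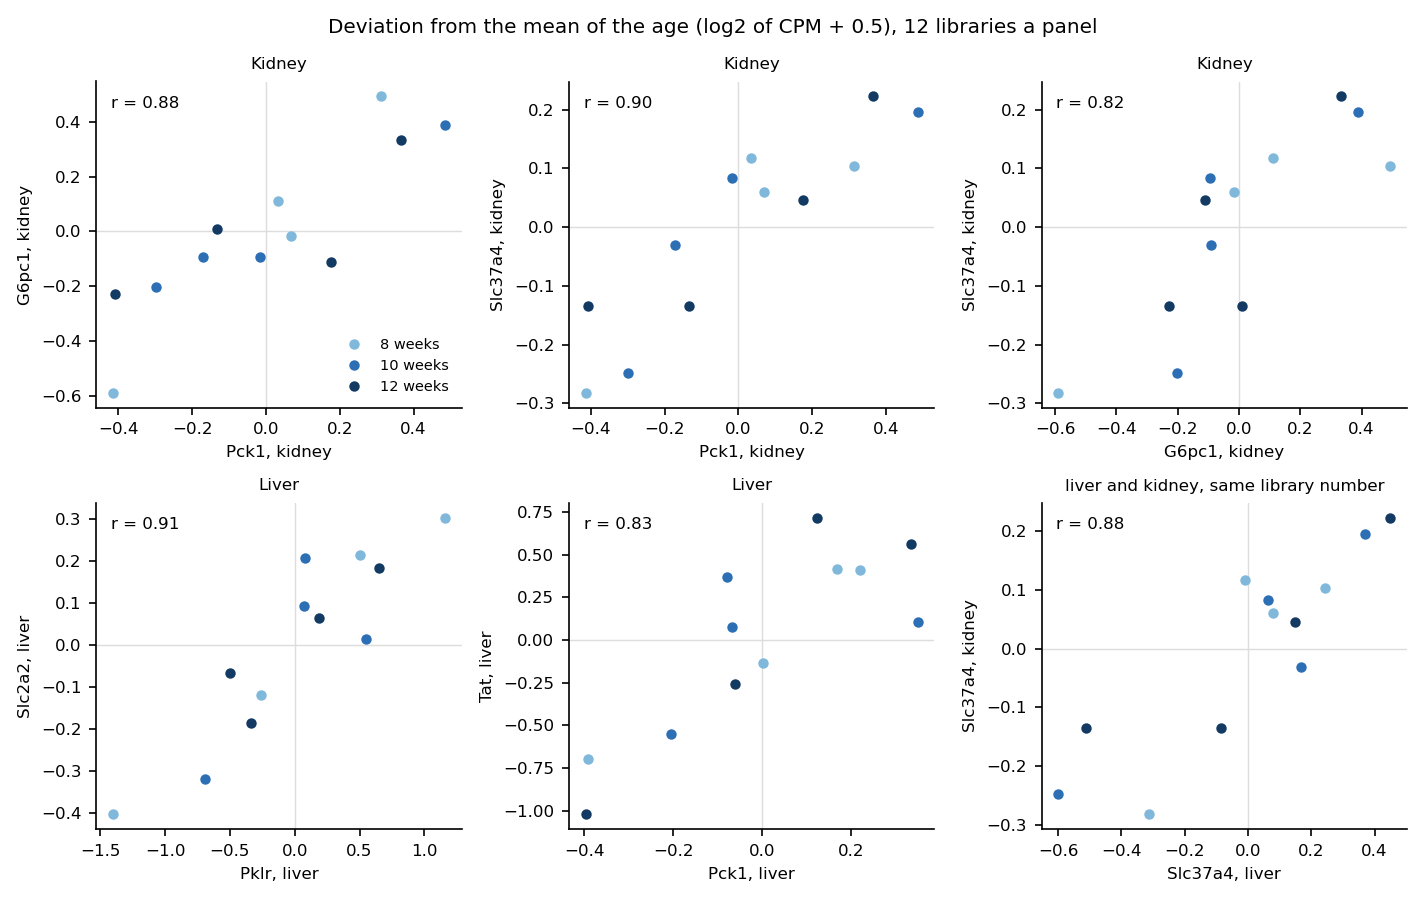
Deviation of each library from the mean of its age, in log2 of CPM + 0.5, for the 3 related pairs in kidney, the 2 in liver, and Slc37a4 in liver against kidney by library number (12 points a panel, shaded by age). All 6 clouds run upwards, with r from 0.82 to 0.91, and each age is spread along them.

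As a description, each gene was set beside all others with a mean of at least 1 CPM (12127 genes in liver, 14208 in kidney) by Pearson's r of log2 levels over 12 libraries, which share depth, composition and age. In liver the most alike gene was Hcn3 for Pklr (r = 0.971), the neighbour on the opposite strand with which it shares exonic bases. Pairs lying on both genes were left out of these counts, and the libraries carried no strand. The cause of the likeness was not tested. Emc8 was most alike for Fbp1 (0.946), Zfp383 for Slc37a4 (0.947), Cdip1 for Ppargc1a (0.947) and Pdk1 for Slc2a2 (0.938). For Pck1 it was Zranb3 (0.860) with Tat as the next (0.844), for Tat Gm71090 (0.899) and for G6pc1 Rbm41 (0.893). In kidney the most alike were Ncoa4 for Pck1 (0.974), Gm15889 for Slc37a4 (0.963), C330020E22Rik for G6pc1 (0.917), Cmbl for Fbp1 (0.929), Ndst1 for Pklr (0.949), Arhgef28 for Slc2a2 (0.911) and Cops2 for Ppargc1a (0.882).

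The other genes of glucose metabolism were followed in lists. In liver at 10 against 8 weeks, 11 of 14 further gluconeogenic enzymes had a lower mean (median log2 change -0.17, none called). Of 17 amino acid catabolism genes 14 had a lower mean (median -0.17, none called). The 19 genes of glycolysis entry and pyruvate were split, 10 higher and 9 lower (median 0.13, none called). Of 25 hormone receptors and regulators 17 had a higher mean (median 0.13, none called), with Hnf4a, a transcription factor of hepatocytes, at 0.52 ± 0.14 (adjusted p = 0.147, edgeR). Of 9 hexose and lactate transporters 5 were lower (median -0.20, none called). An unadjusted p under 0.05 (edgeR) was found for 5 of the 14 enzymes, beside 14.3% of all genes. It was found for 7 of the 17 amino acid catabolism genes and 8 of the 19 genes of glycolysis entry and pyruvate. Of the 25 receptors and regulators 6 had it, and of the 9 transporters 2.

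Among liver glycogen genes 1 was called at 10 against 8 weeks, beside 0.0204% of all genes, and 1 at 12 against 10 weeks, beside 0.0545%. Gys2, the glycogen synthase of liver, fell from 285 to 319 CPM at 8 weeks to 150.02 to 188 CPM at 10 weeks (log2 change -0.87 ± 0.10, adjusted p = 0.00555, edgeR) and rose to 291 to 371 CPM at 12 weeks (0.98 ± 0.10, adjusted p = 0.00309). It was 1 of 17 glycogen genes tested, whose median log2 change at 10 against 8 weeks was -0.14. Among 14 fasting-induced and 12 feeding-induced liver genes none was called at 10 against 8 weeks (medians 0.01 and -0.36). The feeding-induced list includes Pklr, so its median is not separate from the 8 genes. Of the fasting-induced genes Ehhadh, a peroxisomal enzyme of fatty acid oxidation, rose at 12 against 8 weeks (0.46 ± 0.08, adjusted p = 0.0312, edgeR). It was 1 of 14 tested, beside 0.239% of all genes called at these ages.

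In the kidney at 10 against 8 weeks, 10 of 15 gluconeogenic enzymes (median -0.03) and 10 of 13 amino acid catabolism genes (median -0.08) had a lower mean, and none was called. Prodh, proline dehydrogenase, was at -0.54 ± 0.13 (adjusted p = 0.0641, edgeR). Of 13 transporters 11 were lower (median -0.11, none called), with Slc2a5, the fructose carrier GLUT5, at -0.47 ± 0.10 (adjusted p = 0.0509). Slc4a4, the bicarbonate exporter of the proximal tubule, fell by 0.31 on the log2 scale (adjusted p = 0.0428, edgeR). It was 1 of 11 renal ammonia and glutamine genes, whose median was -0.06, beside 0.929% of all genes called. Outside glucose metabolism the calls among the 23 lists in liver and kidney were Apoa2, Egr1 and Aqp2. Apoa2, an apolipoprotein, rose in liver at 12 against 8 weeks (0.49 ± 0.09, adjusted p = 0.0449, edgeR), where 0.239% of all genes were called. Egr1, an immediate early gene, rose in kidney at 10 against 8 weeks (2.06 ± 0.44, adjusted p = 0.0441), where 0.929% were. Aqp2, the water channel of the collecting duct, fell by 1.10 in kidney at 12 against 10 weeks (adjusted p = 0.0239), where 0.482% were.

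Markers of other cells and of the clock are given beside these values. The 6 macrophage markers summed to 288 to 445 CPM in the 10-week livers, above 120.1 to 248 CPM at 8 weeks and 162 to 177 CPM at 12 weeks, and all 6 had a higher mean at 10 than at 8 weeks, with none called. The 8 hepatocyte markers summed to 86282 to 111030 CPM at 10 weeks and 105230 to 142630 CPM at 8 weeks, while 3 of them had a higher and 5 a lower mean at 10 weeks (median log2 change -0.04, none called). Bmal1, a core activator of the circadian clock, was at 1.30 to 7.42 CPM at 10 weeks against 0.907 to 1.78 CPM at 8 weeks (log2 change 1.93 ± 0.42, adjusted p = 0.118, edgeR) in liver, and at 2.04 to 8.83 CPM against 0.873 to 2.19 CPM in kidney (1.63 ± 0.42, adjusted p = 0.0741). Bmal1 had the smallest p of 17 listed clock genes in each of the 3 organs. In liver 6 of 16 tested were higher at 10 than at 8 weeks and 10 lower. In kidney 5 of 17 were higher and 12 lower, and in heart 6 and 11. None was called. An unadjusted p under 0.05 (edgeR) was found for 8, 9 and 11 of them in these organs, beside 14.3%, 16.5% and 15.8% of all genes. The part of cell makeup or of the hour of sampling in the values of the 8 genes was not tested.

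**Figure D5:**
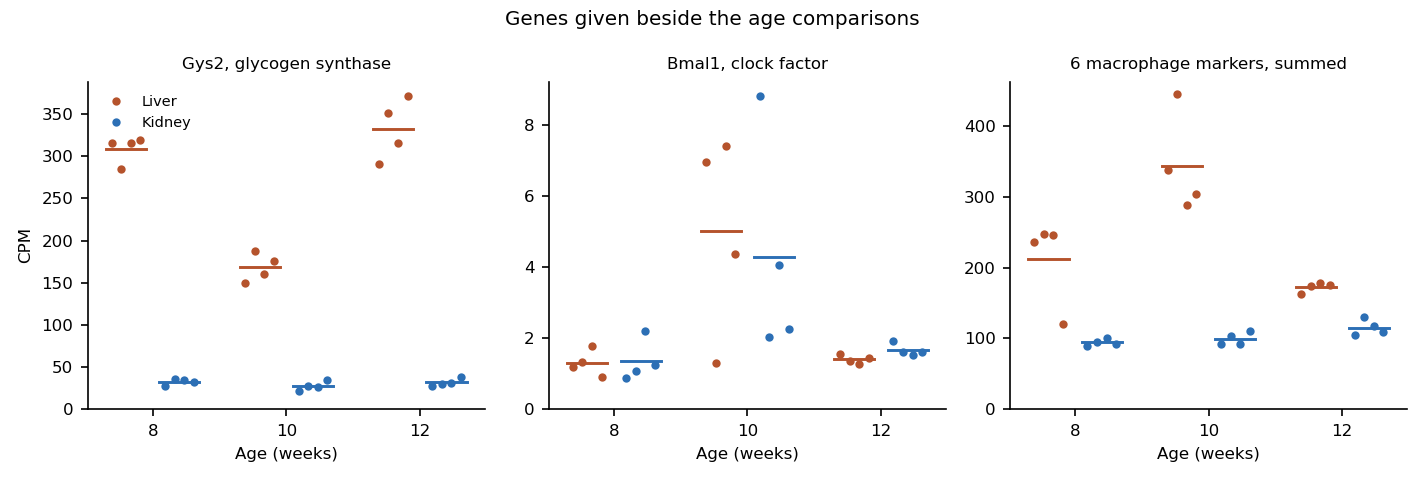
CPM of Gys2, of Bmal1 and of 6 macrophage markers summed, in each liver and kidney library by age, with points for libraries and lines for means of 4. The 10-week livers stand lowest in Gys2 (150.02 to 188 CPM) and highest in macrophage markers (288 to 445 CPM), and 3 of the 4 livers aged 10 weeks lie above all other livers in Bmal1.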

How the data were processed

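Whole liver, kidney and heart of male C57BL/6NCrl mice were measured by paired-end RNA-seq, 4 biological replicates at each of 3 ages. Per the labels, the deposited counts were made with FastQC 0.11.9, cutadapt 4.2 and STAR 2.7.11b on GRCm39, and the authors' gene counts without regard to strand were used (78239 genes, 99.9% matched to a symbol). Pairs on no gene stayed out of library sizes. The 8 genes and all gene lists were chosen with earlier results of these data known.

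Each tissue was fitted on its own with edgeR 4.0.16 (R 4.3.3): genes with a count above 0 in at least 2 libraries and a mean of at least 10 in at least 1 age, TMM scaling factors, age as group means, quasi-likelihood test, Benjamini-Hochberg adjustment over all genes kept, call at an adjusted p under 0.05. Tissues and interactions were tested in 1 fit of 36 libraries. P-values measure the spread between the mice sampled. Correlations used log2(CPM + 0.5) with age means subtracted and permutation tests in numpy 2.4.6. The exact interval of the Tat ratio used scipy 1.17.1. Named were all 8 genes, from each of 23 lists up to 3 called genes a direction (or that of smallest p) where a list was described, and the genes most alike to a member. Some genes that this rule would name are not reported here. Depths of 21031599 to 33637390 pairs a library, PCR duplicates included, limit only the trace genes. Intervals cover counting error only. DESeq2 1.42.0, limma 3.58.1, other filters, other scaling factors, counts that include pairs on genes of both strands, a replicate block and single libraries left out were tried. Shares of all genes come from the main edgeR fits, and none was computed for these alternatives. Scripts were tested on simulated data.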

Additional observations from a re-analysis of the deposited data

Results flagged for a closer look

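In 5 of 57 groups of 4 libraries, 1 value stood apart from the other 3 by more of the group's range than Dixon's critical value at 95% allows. Chance gives about 1 in 20 groups, or 2.85 of 57.

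G6pc1 in 10-week kidneys was highest in replicate 2, at 972 CPM against 645 to 696 CPM. Ppargc1a in 10-week kidneys was lowest in replicate 3, at 110.4 CPM against 115 to 116 CPM. Slc37a4 in 8-week kidneys was lowest in replicate 1, at 328 CPM against 416 to 433 CPM. In 12-week hearts replicate 4 was highest in both Tat (0.670 CPM against 0 to 0.0699 CPM) and Slc37a4 (19.9 CPM against 16.3 to 16.9 CPM). That heart held 70 counts of Alb, the third highest number of the 12 hearts.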

How the results depend on the processing

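Without a count filter, genes with an adjusted p under 0.05 at 10 against 8 weeks numbered 2 in liver (Pklr and Slc37a4) and 3 in kidney (Pck1, Pklr and Slc37a4). In heart they numbered 3, Ppargc1a and the trace genes Pck1 and Tat. Over the 3 ages there were 2, 3 and 3 in liver, kidney and heart. There was 1 in heart at 12 against 10 weeks and 1 in each interaction, and 2 were lower in liver than in kidney. DESeq2 called 1 gene at 10 against 8 weeks and 1 over the 3 ages, in kidney and in heart alike. A fit of 2 ages called 1 at 10 against 8 weeks in kidney and in heart. No share of all genes was computed under these settings, so the counts cannot be set beside one. The cause of these shifts was not tested. On library totals 3 genes were lower in liver (Fbp1 at -0.073 and Slc37a4 at -0.19 turned), with the median of all genes at -0.93. Without age subtraction 8 liver and 6 kidney pairs were related, and with resamples within ages 0 liver pairs.

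With the replicate number as a block, edgeR heart calls were 2 at 10 against 8 weeks (Ppargc1a, adjusted p = 0.0255, and Tat, 0.046) and 2 over the 3 ages. Tat, a trace gene in heart, passed the count filter through the 10-week hearts alone, so its call is not read as a result. No count in liver or kidney changed. The numbers did not pair the samples: same-numbered libraries of 2 ages correlated at -0.30 to 0.22 in liver and -0.20 to 0.16 in kidney. Liver and kidney libraries of the same number correlated at 0.06 to 0.29, best with their own number in 12 of 12, a hint from the data and not from the design. With that number as a block 0 genes passed either interaction, and Slc37a4 at 10 against 8 weeks stood at -0.33 ± 0.15 (adjusted p = 0.507, edgeR), against -0.32 ± 0.23 (adjusted p = 0.746) without it.

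Leaving out 1 library gave 0 to 1 calls at 10 against 8 weeks in kidney and in heart, 0 to 2 over the 3 ages in heart, 1 to 2 genes lower in liver, 1 to 8 related pairs in liver, 2 to 5 in kidney and 1 to 2 genes related between them. Slc2a2 at 12 against 8 weeks in liver then ranged from -0.080 to 0.15, and G6pc1 was lower in liver without replicate 4 of the 12-week livers (-0.46, adjusted p = 0.0373). Other counts of calls stayed at 0, and 6 genes stayed higher in liver.

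Of 1978 recomputed log2 differences of single genes, 51 had the other sign, the largest of them 1.18 in size, for a trace gene in heart at 12 against 8 weeks. For the 35 values followed because the text discusses them, 838 of 864 recomputed values kept their direction and side of the threshold. Another 21 passed it, 5 turned, and 0 lost a call with the direction kept. Fbp1 in liver against kidney, 1 of the 5, lost its call as well on library totals (-0.073, adjusted p = 0.406, edgeR). With 4 libraries an age and scatter of up to 61.0% within ages, small changes were not detectable; depth limited only Tat in kidney and the traces in heart.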
